A study of Mus musculus with 13 samples.

Results

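The Nrtn Tns1 subtype of layer 5 extratelencephalic (ET)-like neurons was described in single neurons dissociated from the mouse retrosplenial cortex. A cell was a member when C1ql2 and Qrfpr together reached 50 CPM (the gene's counts per 1000000 counts of the cell), Calb1 was below 100 CPM, and Tnnc2 and Eps8l2 together were below 30 CPM. The summed CPM of Nrtn, Tns1, Btc and Wwtr1 also had to equal or exceed that of Reln, Mc4r and Pdyn. This rule took 83 of 765 cells, 25 from animal 1, 32 from animal 2 and 26 from animal 3. The cells came from 11 samples of wild-type B6 mice, 3 samples from animal 1, 4 from animal 2 and 4 from animal 3, with no treatment named and with the age of the mice not given in the labels. Cells were pooled over acute slices after microdissection, and the cell names place each at an anterior, medium or posterior level of dissection. The comparison class was the 634 cells below 50 CPM of C1ql2 and Qrfpr (112, 248 and 274 by animal), called C1ql2-low cells here. A nearer comparison class was the 35 cells that met the same limits but had the larger Reln, Mc4r and Pdyn sum (12, 16 and 7 by animal), called Reln Mc4r cells. A further 13 cells of the 131 at or above 50 CPM fell outside the Calb1 or Tnnc2 and Eps8l2 limits and entered no class.

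Extratelencephalic neurons of cortical layer 5 send axons out of the telencephalon, to the thalamus, midbrain, pons and spinal cord. Fezf2 and Bcl11b (CTIP2) are the transcription factors best known for specifying them. Intratelencephalic neurons, whose axons stay within the cortex and striatum, and the corticothalamic neurons of layer 6 make up most of the other excitatory neurons. The retrosplenial cortex is a midline area tied to spatial navigation and memory. C1ql2 encodes a secreted C1q-like synaptic organiser, Nrtn the GDNF-family ligand neurturin, Tns1 the focal-adhesion protein tensin 1, Btc the EGF-receptor ligand betacellulin and Wwtr1 the Hippo-pathway coactivator TAZ.

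The members held between 22221 and 451843 counts per cell. The median total of the members was 73834, 169683 and 234896.5 counts in animals 1, 2 and 3, against 59042, 129826.5 and 175014.5 in the C1ql2-low cells, higher in 3 of 3 animals (exact permutation test of 3 against 3 medians, two-sided, p = 0.5). The median number of detected genes was 5510, 5862 and 6418.5 against 4738.5, 5247.5 and 5459.5, also higher in 3 of 3 animals, at p = 0.1, the smallest value that the exact permutation test of 3 against 3 can give. Permuted within animals, both gave an exact p of 0.25, the smallest for 3 pairs. Replicates are animals, and counts were summed over the cells of a class in an animal before any test. Markers of other cell types were summed in each class, and 0 of those tested were called against C1ql2-low cells. Gad2, which makes GABA in inhibitory neurons, had 0 counts in the members, Gad1 had 3, and the 4 inhibitory markers in the table summed to between 0.172 and 12.5 CPM in members and between 1.53 and 16.01 CPM in C1ql2-low cells. The endothelial and pericyte list was represented by Rgs5 alone, with 6 counts in the members. The 8 astrocyte markers summed to between 160 and 174 CPM in members and between 305 and 403 CPM in C1ql2-low cells. Nearly all of that sum was the glutamate transporter Slc1a2, with 2270 counts, while Gfap, Gja1 and Slc1a3 had 1 count each. The oligodendrocyte markers summed to 635, 135 and 145 CPM in the members of animals 1, 2 and 3, against 188, 152 and 145 CPM in C1ql2-low cells. The high value of animal 1 came from 1 anterior cell at 6537 CPM (the next member had 729 CPM), and without it animal 1 stood at 145 CPM. Leaving out this cell and the 4 C1ql2-low cells at or above 1000 CPM gave 368 genes called against C1ql2-low cells, 354 of them shared with the 368 called with these cells in, and the same 4 genes called between dissection levels.

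The genes of the rule are described first, without a test, because they chose the cells. C1ql2 stood at 911, 687 and 817 CPM in the members of animals 1, 2 and 3, and at 1.90, 0.445 and 0.463 CPM in the C1ql2-low cells. It was detected in 82 of the 83 members. Qrfpr, the receptor of the neuropeptide 26RFa, was at 65.8, 61.4 and 58.4 CPM and was detected in 44 of 83. The subtype genes were patchier from cell to cell. Nrtn was detected in 45 of 83 members and stood at 19.7, 40.1 and 112 CPM in animals 1, 2 and 3, so animal 3 was the highest. Tns1 was detected in 56 members, at 86.0, 29.8 and 51.5 CPM, with the highest value in animal 1. Wwtr1 was detected in 19 members, at 18.3, 18.9 and 23.3 CPM. Btc was detected in 7 members and was carried by few cells, at 0, 2.06 and 32.9 CPM.

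**Figure D1:**
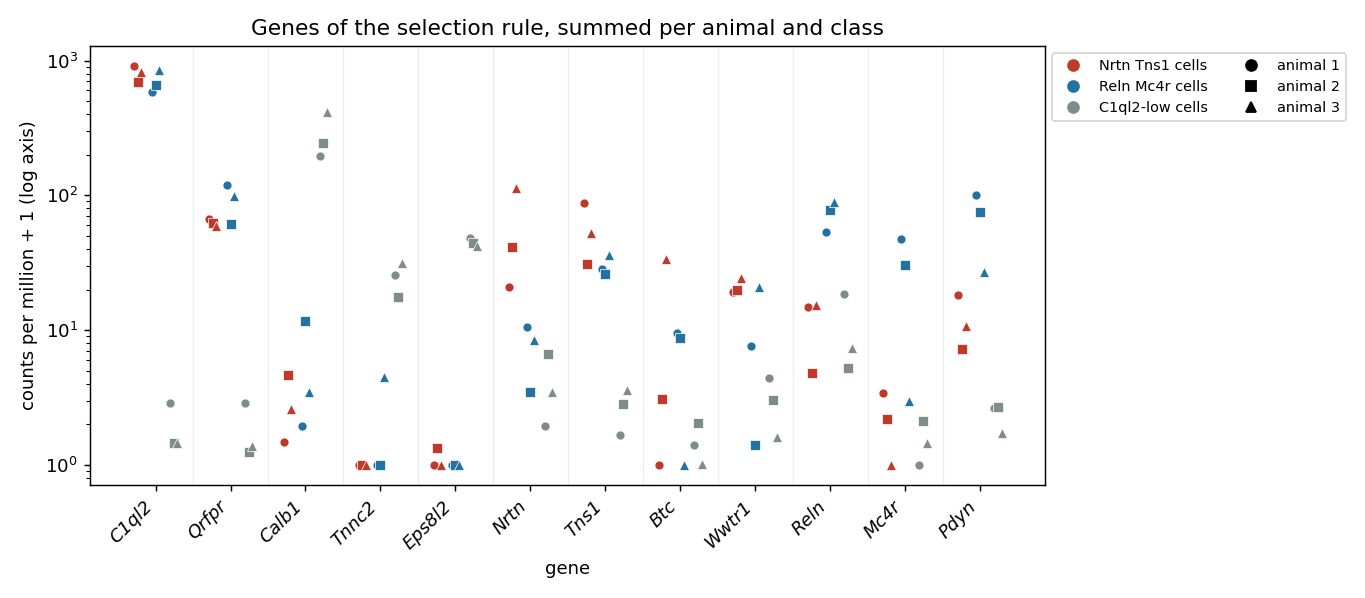
CPM plus 1 (log axis) of the 12 genes of the selection rule, for each animal (symbol) in Nrtn Tns1, Reln Mc4r and C1ql2-low cells (colour). C1ql2 lies between 687 and 911 CPM in the members of all 3 animals, while Btc runs from 0 to 32.9 CPM and Tnnc2 is at 0.

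The members did not share 1 signature of the 4 subtype genes. Nrtn and Tns1 were found together in 33 cells, Nrtn without Tns1 in 12, Tns1 without Nrtn in 23 and neither in 15, and 1 cell held counts of all 4 subtype genes. Of the 15 cells with neither, 3 held Wwtr1 or Btc, and 12 held none of the 7 subtype genes and became members because 0 equals 0 (5, 6 and 1 in animals 1, 2 and 3). At least 1 of Reln, Mc4r or Pdyn was detected in 31 members. Reln, the secreted glycoprotein reelin, was at 13.9, 3.78 and 14.4 CPM in members against 52.2, 76.5 and 88.4 CPM in Reln Mc4r cells, and Tns1 in Reln Mc4r cells was still at 27.5, 24.96 and 34.8 CPM. The members nearest the C1ql2 and Qrfpr limit had 52.4, 64.1 and 65.5 CPM of the pair, and the cells just below it that met the other limits had 46.2, 42.9 and 42.5 CPM. There were 7 cells that lay between 25 and 50 CPM and met the other limits. On the subtype limit, the members just above a zero difference had 2.21, 7.29 and 11.03 CPM more of the Nrtn sum, and the cells just on the other side had 3.13, 5.79 and 8.68 CPM more of the Reln sum.

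Over the 131 cells at or above 50 CPM of C1ql2 and Qrfpr, the genes whose CPM ranked most like that of Nrtn among 9768 genes were Cplx1 (Spearman rho 0.51), Bag1 (0.49), Mpp6 (0.45), Nrip3 (0.45) and Cntnap1 (0.44). Cplx1 encodes complexin 1, which binds the synaptic vesicle fusion machinery, and Cntnap1 the axonal paranode protein Caspr. These values describe cells that share animals and differ in depth, and they carry no test.

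The first comparison asks which other genes differ between the members and the C1ql2-low cells. Of 12935 genes tested outside the rule, 368 were called (2.84%), with 106 higher in the members (0.819%) and 262 lower (2.03%). A gene was called when its Benjamini-Hochberg adjusted p in edgeR's quasi-likelihood test, with the animal as a block, was below 0.05 and its log2 fold change was at least 1 in size. Of the 106 higher genes, 46 were also above their C1ql2-low level by at least 1 on the log2 scale in the Reln Mc4r cells of animals 1 and 2. The share of all genes that met this cut was not counted. Missing the cut, set on sums of 12 and 16 cells, does not make a gene particular to the members. Between members and Reln Mc4r cells edgeR called 0 genes. The median log2 fold change of members against C1ql2-low cells over all genes was -0.07. Values written as log2 below are such fold changes, with their standard error (SE). The count was 287 without animal 1, 436 without animal 2 and 139 without animal 3, and 129 of the 368 calls were shared with the fit without animal 3. DESeq2 called 646 genes, 352 of them among the 368.

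The 12 genes with the largest rise, by a rule on size, level and agreement of the animals, were Fam159b, Scara3, Fam84b, Syt2, Luzp2, Npr3, Pdlim1, Efnb3, Gprc5b, Kcng1, Bcl11b and Fam20a. Scara3, a scavenger-receptor-like protein, was at 48.5, 55.4 and 65.8 CPM in the members of animals 1, 2 and 3 and at 4.07, 2.59 and 4.38 CPM in C1ql2-low cells, a rise of 4.02 ± 0.40 SE in log2 (0.000695 as the adjusted p in edgeR). All 3 members' sums lay far above all 3 C1ql2-low sums, and the gene was detected in 61.4% of members and 6.78% of C1ql2-low cells. Pdlim1, a PDZ and LIM domain protein of the actin cytoskeleton, was at 84.1, 78.6 and 87.9 CPM against 8.68, 13.8 and 7.65 CPM (log2 3.09 ± 0.31 SE, with 0.00071 as the adjusted p in edgeR). Its spread over animals was small, 83.5 ± 4.67 CPM (SD, n = 3 animals), and it was detected in 77.1% of members. Luzp2 was at 79.3, 62.9 and 45.4 CPM against 8.14, 6.20 and 5.81 CPM (log2 3.21 ± 0.28 SE). Fam159b, named Shisal2b in newer annotation, had the largest rise, at 46.1, 23.7 and 27.7 CPM against 2.71, 0.083 and 2.32 CPM (log2 4.67 ± 0.80 SE, with 0.0104 as the adjusted p in edgeR). Without animal 1 the calls of Fam159b and of Efnb3, a transmembrane ephrin, were lost, and without animal 3 those of Npr3 and Syt2 were lost. The classes differed in dissection level, with 51 of 83 members and 203 of 634 C1ql2-low cells from the posterior level. In a fit with posterior cells only, the calls of Fam20a, Fam84b, Gprc5b, Npr3, Scara3 and Syt2 were lost.

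Kcng1, Syt2 and Npr3 were also among these 12. Kcng1, a modifying subunit of Kv2 potassium channels, was at 74.5, 65.7 and 50.2 CPM against 10.6, 14.99 and 4.40 CPM (log2 2.83 ± 0.31 SE, with 0.00116 as the adjusted p in edgeR). Syt2, a fast calcium sensor of transmitter release, had like sums in the members of the 3 animals, at 77.4, 73.6 and 78.7 CPM. It ranged from 2.85 to 24.7 CPM in C1ql2-low cells (log2 3.25 ± 0.55 SE). Its posterior members were at 40.3, 0 and 44.4 CPM, against 170, 97.5 and 176 CPM in anterior and medium members (edgeR adjusted p = 0.328). The call of Syt2 was lost without the animal block. Npr3, the clearance receptor of natriuretic peptides, was at 39.4, 23.6 and 29.2 CPM against 5.02, 3.70 and 2.55 CPM (log2 3.10 ± 0.56 SE). Kcng1 was also at 79.8, 102 and 75.0 CPM, and Fam159b at 55.1, 44.2 and 52.1 CPM, in the Reln Mc4r cells, above the members of the same animal in all 3 animals. The rule that named the 12 genes required sums that do not overlap, which held for 367 of the 368 called genes and for 3279 of all 12935.

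**Figure D2:**
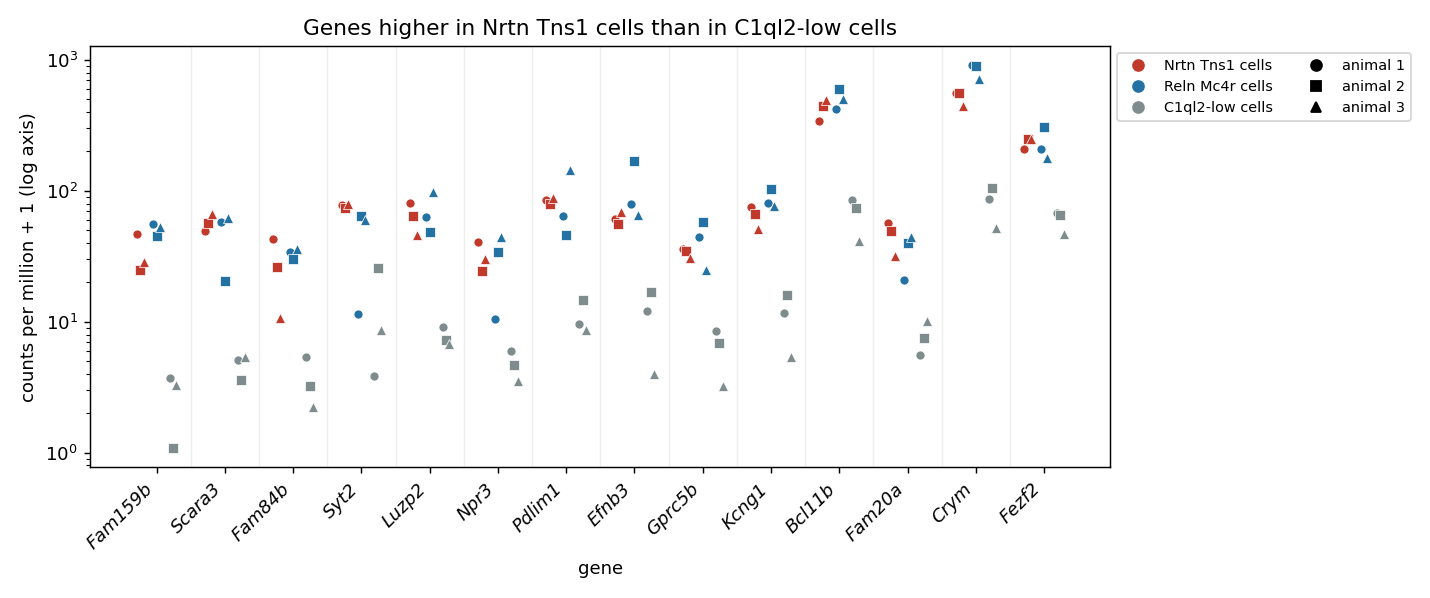
CPM plus 1 (log axis) of the 12 genes with the largest rise in members over C1ql2-low cells, with Crym and Fezf2, for each animal (symbol) and class (colour). In each gene the 3 member sums lie above the 3 C1ql2-low sums, and Bcl11b reaches 342 to 490 CPM in members against 40.1 to 84.8 CPM.

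Markers of layer 5 ET neurons are described next. Their list was chosen with earlier results of these data known, so it is no independent check of the label. Of its 13 names, 9 were among the deposited genes and were tested. Of these, 5 were higher (Bcl11b, Chst8, Crym, Fam84b and Fezf2) and 0 lower, with a median log2 fold change of 2.02. Over all genes tested, 0.819% were called higher and 2.03% lower. Fezf2 was at 206, 249 and 250 CPM in the members of animals 1, 2 and 3 and at 67.2, 64.6 and 46.2 CPM in C1ql2-low cells (log2 2.02 ± 0.19 SE, with 0.000455 as the adjusted p in edgeR). It was detected in 80 of 83 members. Bcl11b was at 342, 447 and 490 CPM against 84.8, 73.3 and 40.1 CPM (log2 2.76 ± 0.26 SE), and in 98.8% of members. Crym, a cytosolic thyroid-hormone-binding protein, was at 555, 553 and 445 CPM against 84.9, 104.6 and 51.4 CPM and was detected in every member (log2 2.76 ± 0.14 SE, with 2.1e-05 as the adjusted p in edgeR). Chst8, a sulfotransferase, was at 151, 76.4 and 123.5 CPM against 28.1, 25.8 and 25.8 CPM (log2 2.11 ± 0.22 SE). When the comparison was limited to the 133 C1ql2-low cells with at least 100 CPM of Fezf2, 119 genes were called, 26 higher and 93 lower. Of the 12 largest rises only Bcl11b, Pdlim1 and Scara3 kept their call there, and Crym also kept it.

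Pvalb, the calcium buffer parvalbumin, did not mark the members as a class. It was at 64.9, 92.4 and 51.3 CPM in the members of animals 1, 2 and 3 and at 37.6, 84.1 and 33.8 CPM in C1ql2-low cells (log2 0.57, with 0.82 as the adjusted p in edgeR). The sums of the groups overlapped, and Pvalb was detected in 21 of 83 members. With sums per sample the log2 fold change was -0.05, and with posterior cells only it was -4.22. Its split by dissection level is given below.

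Markers of the other excitatory neurons were called lower in part, beside 0.819% of all genes called higher and 2.03% lower. Of 6 layer 5 intratelencephalic markers tested, Deptor, Hsd11b1 and Il1rapl2 were lower and Etv1 was higher. Etv1, an ETS transcription factor, was at 359, 297 and 315 CPM against 120, 133 and 113 CPM (log2 1.41 ± 0.16 SE, with 0.00125 as the adjusted p in edgeR). In members Etv1 made up most of the summed layer 5 intratelencephalic markers. That sum stood at 386, 305 and 325 CPM in members and 255, 232 and 217 CPM in C1ql2-low cells, higher in all 3 animals. Of 6 superficial layer markers, 4 were lower (Cux1, Ddit4l, Ntn5 and Stard8) and 0 higher. Of 4 layer 6 intratelencephalic markers, Penk and Oprk1 were lower. Penk, the enkephalin precursor, was at 0.481, 1.20 and 2.41 CPM in members against 108, 194 and 259 CPM (log2 -7.05 ± 0.31 SE, with 8e-06 as the adjusted p in edgeR). Of 5 layer 6 corticothalamic markers, Rprm was lower. Tshz2, in the near-projecting list, stood at 895, 451 and 928 CPM in members and 688, 515 and 574 CPM in C1ql2-low cells, sums that overlapped.

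The 12 largest falls were Igfn1, Pvrl3, Acvr1c, Cpne9, Tmem215, Thsd7a, Kcnc2, Rgs10, Cldn22, Il22, Bok and Stard8. Of these, 3 had 0 counts in the members and 8 had 1 to 3 counts. Igfn1 had 0 counts in the members and 43.7, 36.8 and 42.7 CPM in C1ql2-low cells. Taken against 3 counts over all members (0.212 CPM), it was at least 191-fold lower. Pvrl3 (the cell-adhesion protein nectin 3) and Acvr1c (the activin receptor ALK7) also had 0 counts, and were at least 104-fold and at least 90.6-fold lower by the same floor. Thsd7a had 3 counts in the members, at 0.481, 0 and 0.321 CPM, and 111, 93.8 and 70.8 CPM in C1ql2-low cells (edgeR adjusted p = 9.8e-05). Bok, a Bcl-2 family member, had 6 counts, at 1.92, 0.172 and 0.160 CPM against 120, 96.7 and 89.0 CPM. Kcnc2, the potassium channel Kv3.2 of fast-spiking cells, had 1 count in the members and 29.9, 22.9 and 25.6 CPM in C1ql2-low cells. Without animal 3 the calls of Acvr1c, Cldn22 and Stard8 were lost, and DESeq2 did not call Pvrl3. In a fit with posterior cells only, those of Acvr1c, Cldn22, Kcnc2, Pvrl3 and Stard8 were lost. The falls were shared by the nearer class. In Reln Mc4r cells all 12 genes were also near 0, and the highest animal sum was 2.45 CPM, for Acvr1c in animal 2.

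Ion channels moved in both directions. Over all genes tested, 0.819% were called higher and 2.03% lower, and these shares stand beside each list below. The lists were not tested as sets. Of 54 potassium channel genes tested, 3 were higher (Kcng1, Kcnip1 and Kcnn2) and 7 lower (Kcnc1, Kcnc2, Kcnh1, Kcnh5, Kcnk2, Kcnq5 and Kcnv1), with a median log2 fold change of -0.17. Kcnn2, the small-conductance calcium-activated channel SK2, was at 102, 91.2 and 160 CPM against 60.1, 37.6 and 47.4 CPM (log2 1.29 ± 0.22 SE, with 0.0092 as the adjusted p in edgeR). Kcnh1, the channel EAG1, was at 3.85, 3.27 and 4.81 CPM against 61.1, 64.3 and 73.3 CPM (log2 -4.05). Of 33 sodium, calcium and HCN channel genes, Cacna1h and Scn4b were higher and Scn3b was lower. Cacna1h, the T-type calcium channel Cav3.2, was at 58.2, 73.4 and 66.4 CPM against 14.1, 14.9 and 8.48 CPM (log2 2.46 ± 0.29 SE, with 0.00145 as the adjusted p in edgeR). Scn4b, a sodium channel subunit tied to fast repetitive firing, was at 147, 50.7 and 82.0 CPM against 17.9, 15.7 and 11.2 CPM (log2 2.64 ± 0.45 SE).

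Axonal and presynaptic genes were also split, beside 0.819% of all genes called higher and 2.03% lower. Of 28 neurofilament and axonal transport genes, Gap43, Ina and Nefh were higher and Prph was lower. Gap43, the growth-associated protein of axons, was at 1287, 1011 and 1281 CPM against 520, 443 and 352 CPM (log2 1.47 ± 0.12 SE, with 0.000264 as the adjusted p in edgeR). Nefh, the heavy neurofilament subunit, was at 121, 147 and 233 CPM against 33.9, 60.8 and 27.9 CPM (log2 2.10 ± 0.35 SE). Of 33 synaptotagmin and SNARE genes, Cplx1 and Syt2 were higher and Cplx2, Rims3, Stx1a and Syt13 were lower. The 2 complexins differed in direction. Cplx1 was at 1869, 1818 and 2093 CPM against 915, 934 and 947 CPM (log2 1.06 ± 0.07 SE, with 9.8e-05 as the adjusted p in edgeR), while Cplx2 was at 67.8, 77.4 and 42.2 CPM against 393, 281 and 293 CPM (log2 -2.36). Of 57 axon guidance genes, Efnb3, Nrp1, Unc5b and Unc5c were higher and Epha4, Epha7, Nrp2, Plxnd1 and Slit1 were lower. Nrp2, a semaphorin receptor, had 0 counts in the members and was at least 46.1-fold lower by the same floor.

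None of the 11 genes tested in the GDNF and neurotrophin list was higher outside the rule gene Nrtn, and Gfra2, the preferred co-receptor of neurturin, was lower, at 10.6, 8.77 and 25.3 CPM against 131, 132 and 118 CPM (log2 -3.18, with 0.00129 as the adjusted p in edgeR). Of 30 synaptic adhesion genes, Cbln2, Lrrtm1, Nptx1 and Nptx2 were lower and 0 higher. Nptx1, a neuronal pentraxin that clusters AMPA receptors, was at 2.88, 11.5 and 4.17 CPM against 143, 159 and 112 CPM (log2 -4.47 ± 0.39 SE). Of 15 calcium-binding proteins, Hpca, Hpcal1, Hpcal4, Ncald and Necab3 were lower and 0 higher. Ncald, the calcium sensor neurocalcin delta, was at 32.7, 64.8 and 37.5 CPM against 548, 502 and 421 CPM (log2 -3.41 ± 0.26 SE). Of 25 neuromodulator receptors, the histamine receptor Hrh3 was higher (158, 142 and 115 CPM against 61.1, 49.0 and 39.9 CPM) and Adra2a, Chrm2, Drd1a and Hrh1 were lower. Of 16 neuropeptide genes, Cck, Penk and Scg2 were lower. The EGF list gave Hbegf lower of 7 tested, and the Hippo list gave Vgll4 lower of 17. Over all genes, 0.819% were called higher and 2.03% lower, so a single call is not read as a result about its list.

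The transcription factor list, which also holds Crym, had 9 higher (Bcl11b, Crym, Etv1, Etv5, Fezf2, Lmo3, Nfib, Sox5 and Tox) and 6 lower, Cux1, Lhx2 and Lmo4 among them, of 51 tested. Tox was at 182, 174 and 151 CPM against 39.6, 45.3 and 31.4 CPM (log2 2.15 ± 0.16 SE, with 0.000149 as the adjusted p in edgeR). Lmo4, a LIM-only cofactor tied to callosal neurons, was at 144, 96.8 and 155 CPM against 597, 513 and 629 CPM (log2 -2.14 ± 0.14 SE). Of 19 immediate early genes, Fos was lower. The shares over all genes were 0.819% higher and 2.03% lower, for this list and for the transcription factors. Kcnn2, Cplx1, Hrh3, Tox and Lmo4 lie outside the naming rule and were chosen after their values were seen.

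**Figure D3:**
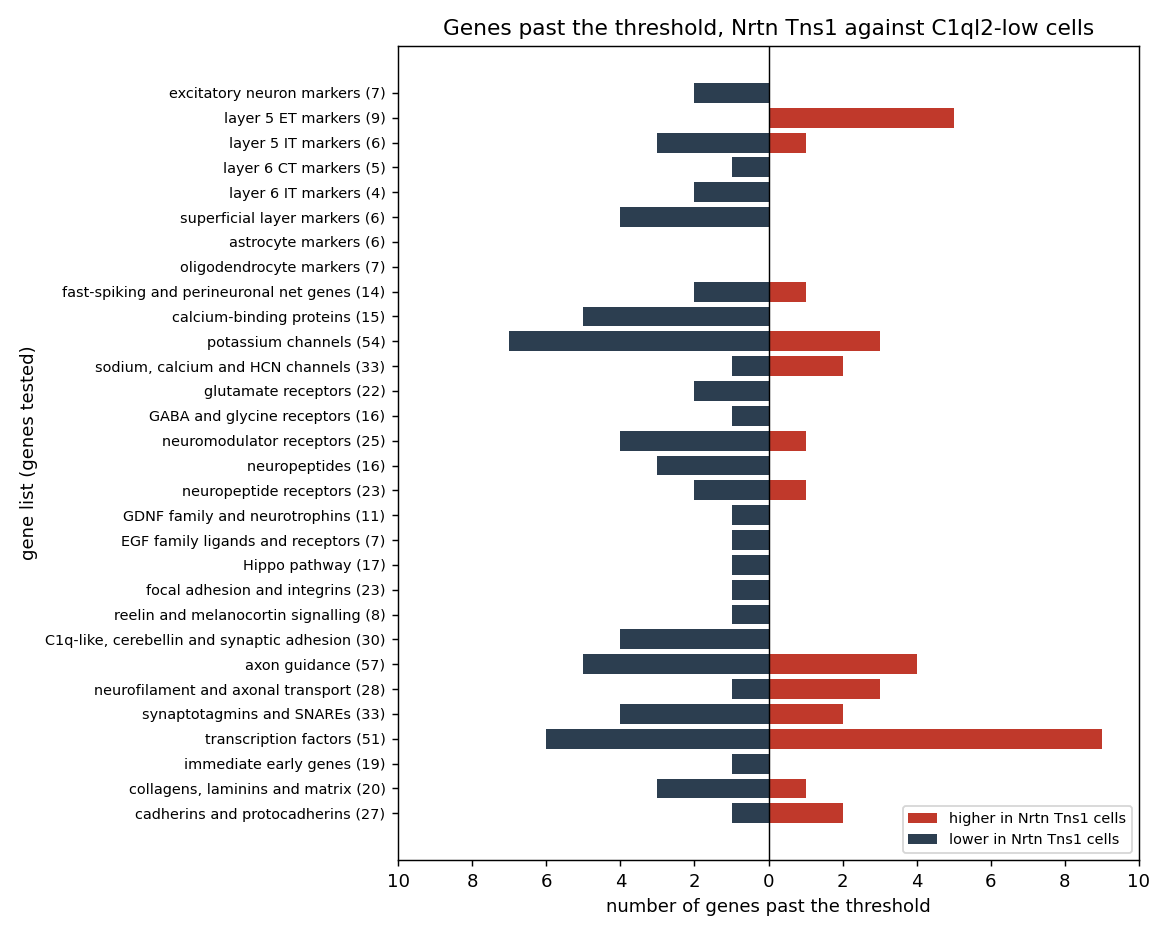
Number of genes past the threshold in each list with at least 4 genes tested (number tested in brackets), with genes higher in the members to the right of 0 and lower to the left. The layer 5 ET markers have 5 higher and 0 lower, and the superficial layer markers 0 higher and 4 lower. Over all genes tested, 0.819% were higher and 2.03% lower.

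The second comparison set the members against the Reln Mc4r cells, the other C1ql2 and Qrfpr cells. Outside the rule genes, edgeR called 0 of 12935 genes (0.0%), with 1365 at an unadjusted p below 0.05 and a smallest adjusted p of 0.0916. DESeq2 called 163, 110 higher and 53 lower in the members. The fit held the members of 3 animals and the Reln Mc4r cells of 2, because animal 3 had only 7. On simulated counts with the same samples, 66 of 100 genes changed by 1.5 on the log2 scale and 99 of 100 changed by 3 were called, with 7 false calls. The changed genes had a mean of at least 20 CPM, and no differences between animals were simulated. Genes at lower levels or varying more between animals were therefore not covered. The layer 5 ET markers did not all have like levels in the subtypes. Fezf2 was at 206, 305 and 179 CPM in the Reln Mc4r cells of animals 1, 2 and 3 (log2 difference -0.01) and Bcl11b at 423, 599 and 505 CPM (-0.11), and neither passed the threshold. Crym was at 555, 553 and 445 CPM in members against 912, 893 and 718 CPM (log2 -0.58, with 0.316 as the adjusted p in edgeR). The summed layer 5 ET markers were lower in members in all 3 animals, at 2053, 1895 and 2068 CPM against 2518, 2653 and 2296 CPM, a description with no test. Crym is part of that sum and also varied with dissection level. It was at 624, 1077 and 489 CPM in posterior members and at 383, 383 and 320 CPM in anterior and medium members. The subtypes differed in level, as given below, and the part of level in this gap was not tested.

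Of the 10 genes nearest to a call, 3 are named here, chosen after their values were seen. Scn3b, a sodium channel subunit, was at 121, 223 and 132 CPM in members against 361, 511 and 283 CPM in Reln Mc4r cells (log2 -1.40 ± 0.16 SE, with 0.0916 as the adjusted p in edgeR). Epha7, an ephrin receptor, was at 73.5, 53.8 and 73.3 CPM against 248, 153 and 85.4 CPM (log2 -1.61 ± 0.21 SE). Htr2c, the serotonin receptor 2C, was at 75.9, 49.7 and 70.1 CPM against 12.3, 3.68 and 54.1 CPM (log2 3.21 ± 0.47 SE, with 0.0935 as the adjusted p in edgeR). Animal 3, whose Reln Mc4r cells were not in the fit, had the smallest gap in all 3 genes by ratio. The subtypes also differed in dissection level, with 29 of 35 Reln Mc4r cells and 51 of 83 members from the posterior level. With posterior cells only, edgeR again called 0 genes, with 789 at an unadjusted p below 0.05, and the log2 fold change was -0.85 for Scn3b, -1.34 for Epha7 and 1.19 for Htr2c.

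The third comparison asks how the members vary along the dissection. Posterior members (19, 12 and 20 cells in animals 1, 2 and 3) were set against anterior and medium members together (6, 20 and 6 cells), which the rule did not use. Of 9375 genes tested, 4 were called (0.0427%), with 541 at an unadjusted p below 0.05. Pvalb and the medium neurofilament gene Nefm were lower at the posterior level (0.0213% of genes), and Cadm1 and Scn3b were higher (0.0213%). DESeq2 called 43 genes, the 4 among them, and with no filter on low counts 60 were called.

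Pvalb was far higher in anterior and medium than in posterior members. It was at 228, 122 and 183 CPM in the anterior and medium members of animals 1, 2 and 3, and at 0, 0 and 4.99 CPM in the posterior members (log2 -6.57 ± 0.71 SE, with 0.00289 as the adjusted p in edgeR). A total of 3 counts would be 2.02 CPM in the posterior sum of animal 1 and 2.10 CPM in that of animal 2. Pooled over animals, it was at 276 CPM in medium, 27.1 CPM in anterior and 3.06 CPM in posterior members. Anterior members alone were at 114, 8.53 and 65.5 CPM in animals 1, 2 and 3, on 2, 10 and 2 cells. In animal 1 the Pvalb counts of anterior members came from 1 cell, at 226 CPM. It was the cell high in oligodendrocyte markers. A count was found in 5 of 14 anterior, 11 of 18 medium and 5 of 51 posterior members. Posterior members were less deeply sequenced, with a median of 117140 counts against 199800.5. When every cell was thinned to 50000 counts, the numbers were 4 of 14, 10 of 15 and 4 of 50. Of the 10 samples that held both kinds of member, 8 had the lower Pvalb level at the posterior level and 2 had 0 at both. Over all cells of the class, the anterior and medium level was 48.0 times the posterior one, against 90.3 times in Reln Mc4r cells and 2.61 times in C1ql2-low cells. The C1ql2-low animals differed, with 44.3, 107 and 32.6 CPM in anterior and medium and 27.2, 0.128 and 37.0 CPM in posterior cells of animals 1, 2 and 3, so that animal 2 fell steeply and animal 3 did not fall. In C1ql2-low cells a Pvalb count was found in 47 of 236 anterior, 42 of 195 medium and 27 of 203 posterior cells.

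Nefm was at 1721, 1649 and 2376 CPM in anterior and medium members and at 752, 391.8 and 983 CPM in posterior ones (log2 -1.52 ± 0.19 SE, with 0.00509 as the adjusted p in edgeR). Cadm1, a synaptic immunoglobulin adhesion protein, was at 123.2, 186 and 182 CPM against 489, 852 and 503 CPM in posterior members (log2 1.87 ± 0.22 SE, with 0.00378 as the adjusted p in edgeR). Scn3b was at 25.3, 75.9 and 49.3 CPM against 159, 676 and 161 CPM (log2 2.49 ± 0.32 SE, with 0.00639 as the adjusted p in edgeR). In all 10 samples with both kinds of member Nefm was lower and Cadm1 and Scn3b were higher at the posterior level. These 10 samples hold the same cells of the same 3 animals that gave the calls, and some of their sums rest on 1 cell. Without the animal block the calls of Nefm (edgeR adjusted p = 0.389) and Scn3b (adjusted p = 0.436) were lost. Without animal 3 Nefm missed the threshold (edgeR adjusted p = 0.0533). The number of genes called was 42 without animal 1 and 27 without animal 2.

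**Figure D4:**
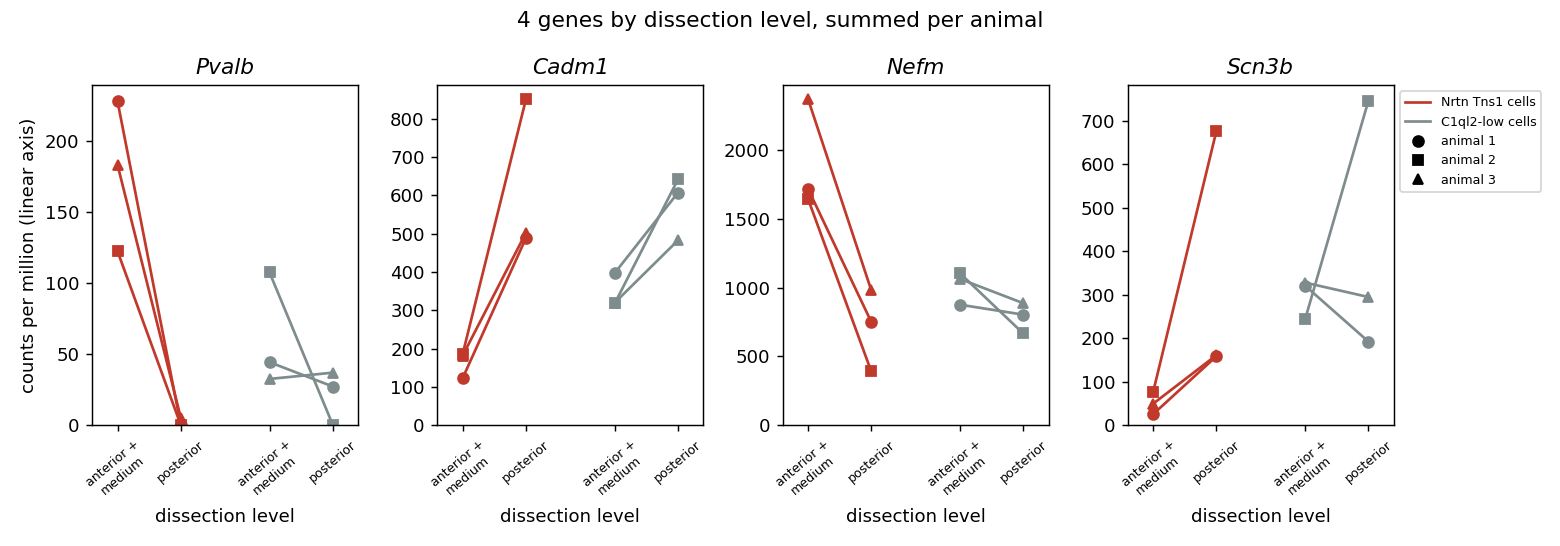
CPM (linear axis) of Pvalb, Cadm1, Nefm and Scn3b in anterior and medium cells and in posterior cells, for members and C1ql2-low cells, with a line for each animal. In the members Pvalb falls from 122 to 228 CPM to at most 4.99 CPM, and Scn3b rises in each animal.

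The same contrast in C1ql2-low cells gave 0 calls of 12359 genes by edgeR, with 140 at an unadjusted p below 0.05, in a fit of 12 sums that held both classes. Cadm1 was at 397, 318 and 320 CPM in anterior and medium and at 607, 642 and 483 CPM in posterior C1ql2-low cells of animals 1, 2 and 3. Nefm was at 877, 1106 and 1064 against 804, 667 and 887 CPM, and Scn3b at 321, 243 and 328 against 192, 746 and 295 CPM. The Reln Mc4r cells held only 6 anterior and medium cells, 4 of animal 2 and 2 of animal 3, and were not tested for level. Pooled over animals, their posterior cells were at 777 against 179 CPM for Cadm1, 520 against 103.01 CPM for Scn3b, 510 against 1755 CPM for Nefm and 3.58 against 323 CPM for Pvalb, the directions seen in the members. Animal 3 went the other way for Pvalb, with 0 in its 2 anterior and medium cells and 10.1 CPM in its posterior cells. The difference of the level effect between the classes was tested in that fit and 0 of 12359 genes were called, with 688 at an unadjusted p below 0.05 (edgeR adjusted p = 0.875 for each of the 4 genes). In the same fit only Cadm1 of the 4 kept its call within the members (edgeR adjusted p = 0.0162), beside 0.0559 for Nefm, 0.0751 for Scn3b and 0.156 for Pvalb. It called 3 genes within the members, Cadm1, Gstt1 and Scg2.

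Genes of the cell rule are given by level as values only, because they chose the cells. C1ql2 was at 1097, 878 and 894 CPM in posterior and at 446, 625 and 601 CPM in anterior and medium members. Nrtn was at 14.8, 10.51 and 108 CPM in posterior and at 32.1, 49.7 and 122 CPM in anterior and medium members. Fezf2, which is not a gene of the rule, was at 220, 330 and 264 against 170, 223 and 208 CPM (log2 0.42, with 0.917 as the adjusted p in edgeR). Nearest to a call after the 4 genes were Vamp1, a vesicle SNARE, with a log2 fold change of -2.02, Igfbp6 with -4.81, Odz2 with 1.02 and Scn4b with -2.11, each at an edgeR adjusted p of 0.121. These 4 genes were named after their values were seen. A comparison of medium with anterior members alone was not run, because only animal 2 had at least 5 cells at both levels.

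The members made up a larger share of the posterior than of the anterior cells in each animal. They were 4.44%, 9.43% and 1.90% of the anterior cells of animals 1, 2 and 3, 11.4%, 11.2% and 4.30% of the medium cells and 26.4%, 11.01% and 18.02% of the posterior cells. The mean share was 18.5% ± 7.70 (SD, n = 3 animals) at the posterior level against 5.26% ± 3.83 for anterior cells, with all 3 animals in that direction (exact permutation test, two-sided, p = 0.1, adjusted p = 0.4 over the 4 share comparisons). Permuted within animals, since both levels come from the same animals, the exact p was 0.25, the smallest that 3 pairs can give. With ties left out of the members, the exact permutation p over the 6 shares was 0.2. The medium level stood at 8.99% ± 4.06 (exact permutation p = 0.3, adjusted p = 0.4). In animal 2 the 95% exact binomial intervals of the levels overlapped widely, 4.62 to 16.7% at the anterior and 5.82 to 18.4% at the posterior level, and they cover counting error only. Among cells at or above 50 CPM of C1ql2 and Qrfpr, the members were 58.2% ± 18.5 at the posterior, 85.6% ± 12.5 at the medium and 64.5% ± 13.6 at the anterior level, with exact permutation p of 0.8 for posterior and 0.2 for medium against anterior. The dissection chose the cells, so these are shares of the cells collected.

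**Figure D5:**
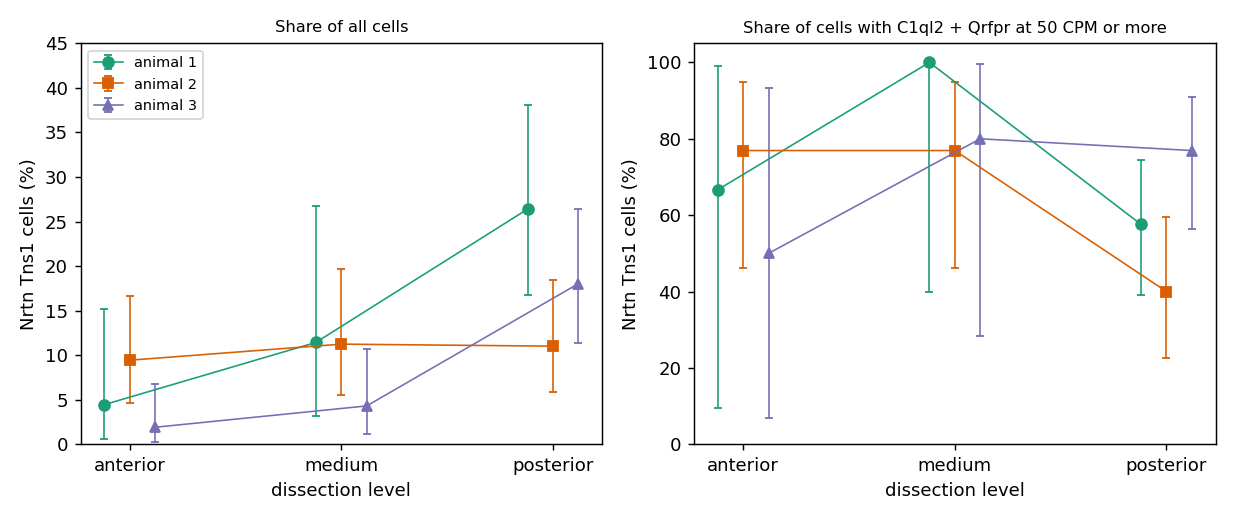
Share of Nrtn Tns1 cells (%) among all cells (left) and among cells with at least 50 CPM of C1ql2 and Qrfpr (right) by dissection level, with a point for each animal and 95% exact binomial intervals. The left share is 26.4%, 11.01% and 18.02% at the posterior level, and the right intervals are wide.

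Spatial sections of 10 um thickness gave a second readout, in which each spot can hold several cells. A count of C1ql2 or Qrfpr was found in 103 of 1022 spots (10.1%) of section S4 and in 79 of 951 spots (8.31%) of section S8. Those spots were somewhat deeper, with medians of 8696 against 8215 counts in S4 and 7438 against 6654 in S8. Of the 12 genes with the largest rise in members, 7 were higher in these spots in both sections and 0 lower in both. Of 16836 genes with a count in both sections, C1ql2 and Qrfpr left out, 21.2% were higher in both and 32.9% lower in both. Those genes were not matched to the 12 in level. With at least 2 counts asked of a spot (11 and 13 spots), 5 of the 12 were higher in both sections and 2 lower. Over all genes the shares at that setting were 15.7% higher in both and 46.5% lower in both. Syt2 was at 22.0 against 15.4 CPM in S4 and 43.9 against 19.5 CPM in S8. Fam84b was at 7.70 against 4.25 CPM and 16.9 against 5.52 CPM, on 7 counts in the spots of S4. Some differences were slight, as for Fam159b in S4, at 3.30 against 3.19 CPM on 3 counts. Bcl11b was at 69.3 against 62.7 CPM in S4 and lower in S8, at 62.5 against 66.8 CPM. Of the 12 genes with the largest fall, 6 were lower and 4 higher in both sections. Nrtn was at 4.40 against 4.25 CPM in S4 and 10.1 against 4.14 CPM in S8. Each section is 1 sample, so no test was made, and the spots were chosen by C1ql2 and Qrfpr without the other limits.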

How the data were processed

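The authors deposited whole-number counts per gene for 765 single neurons and 15114 genes, and spot counts of the spatial sections. Per the submitters' processing notes, Seurat and Space Ranger were used with the builds NCBIM37 and mm10. The aligner and whether the counts are of reads or of molecules are not given in the sources used here. Animal and sample came from the deposited cell annotation and dissection level from the cell names. The members and gene lists were chosen with earlier results of these data known. Counts were summed per animal and class (at least 10 cells, 5 for levels, 1053203 to 51788341 counts per class sum) and tested with edgeR 4.0.16 (filterByExpr, TMM, quasi-likelihood, animal as block) in R 4.3.3, with the 3 classes in a shared fit. DESeq2 1.42.0 was an alternative. The animal pairs the sums, because the classes come from the same 3 animals. The rule for named genes took, per direction, the 12 largest called changes with sums that did not overlap, the same direction in every animal and at least 20 CPM in the higher class, beside up to 4 called genes of each list. CPM in the text is the summed count over the summed total, without TMM factors. Doublets were not called. On simulated counts, 80 of 100 genes changed by 1.5 and 99 of 100 changed by 3 (log2) were called against C1ql2-low cells, with 3 false calls among 12585 genes. In the simulation the changed genes had a mean of at least 20 CPM, the spread followed its trend with level, and animals did not differ. Alternatives changed the normalization, the filter, the block, the classes in the fit, the unit summed, the depth, the limits of the rule and the animals kept. Some items are not reported here.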

Additional observations from a re-analysis of the deposited data

How the results depend on the processing

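The number of genes called against C1ql2-low cells, 368, became 646 with DESeq2, 559 with only those 2 classes in the fit, 939 with sums per sample, 230 with Reln Mc4r sums of at least 5 cells admitted, 128 with posterior cells only, 119 with Fezf2-positive comparison cells, and 139 to 436 when an animal was left out. It was 373 without the animal block, with 319 calls shared. The number called against Reln Mc4r cells, 0, became 163 with DESeq2, 2 with no filter, 8 with only those classes in the fit, 4 with sums per sample, 10 with thinned cells, 2 at a limit of 100 CPM, 1 with ties left out, 3 with subtype sums at least 3 times apart, and 0 to 13 when an animal was left out. It stayed 0 without the animal block. The number called between dissection levels, 4, became 43 with DESeq2, 60 with no filter, 2 without the animal block, and 6 to 42 when an animal was left out. The cause was not tested. The posterior minus anterior share among C1ql2 and Qrfpr cells, -6.36 percentage points, became 4.71 at a limit of 100 CPM and ran from -23.0 to 8.92 when an animal was left out. With the replicate block (levels permuted within animals) the share differences of 13.2 and -6.36 percentage points had an exact p of 0.25 and 0.75. The log2 fold change of Pvalb against C1ql2-low cells, 0.57, became -0.0501 with sums per sample and -4.22 with posterior cells only. The other 88 genes of the naming rule kept their direction under every alternative in which they were tested (2 of the 89 were not tested with Fezf2-positive comparison cells and 1 not with thinned cells). Fezf2 aside, these genes were named because they were called in these same cells. Many calls did not hold: 41 were lost without animal 3, 46 with posterior cells only and 56 with Fezf2-positive comparison cells. Of all 368 calls, 1 took the opposite sign with posterior cells only and 2 with Fezf2-positive comparison cells. The fits with posterior cells only, with Fezf2-positive comparison cells, with library totals for the levels, with the 12 sums of both classes, without the cells high in oligodendrocyte markers with sums of at least 5 cells and with levels permuted within animals were chosen after seeing the data. Medium against anterior members could not be fitted. Depth limits the anterior and medium sum of animal 1 most, at 592546 counts.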
